A study of Danio rerio with 18 samples.

Results

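Broad unjoined acetylation domains are long stretches of chromatin carrying histone H3 acetylated at lysine 27 (H3K27ac), each listed as a single locus. They were chosen by 2 measured properties of the deposited regions, a length of at least 10 kb and a locus number of 1. The rule found 605 of 66306 regions, which is 0.912%, over 10 deposited lists. Their numbers were 151 of 14212 regions in the 1-year heart, 196 of 15042 in the intestine at 1 year, 162 of 13235 in the brain at 10 months, 28 of 13802 in the 10-month heart and 68 of 10015 in the testis at 10 months. The remaining regions were 19689 joined regions of 10 kb or more, which hold 2 or more loci and the gaps between them, 39831 unjoined regions under 10 kb and shorter joined regions.

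The study measured H3K27ac by chromatin immunoprecipitation and sequencing in organs of wild-type male zebrafish of the AB strain, with no treatment named in the labels. Immunoprecipitated DNA gave 9 libraries and input DNA another 9, with 2 of each kind per set, or 1 of each for the hearts of 10-month fish. The 1-year fish gave hearts, pooled by 20, and intestines, pooled by 5, sheared to 200 bp. The 10-month fish gave brains, pooled by 12, hearts, pooled by 20, and testes, pooled by 8, sheared to 175 bp. Age, fragment size and preparation differed together between these sets and cannot be told apart. Each set was deposited as 1 super-enhancer list and 1 typical-enhancer list in coordinates of the build Zv9, with no values per replicate and no read counts. Differences between sets or classes therefore have no replicate check, no test was made, and depth is unknown. In whole organs, fewer cells with a mark and less mark per cell cannot be told apart. No annotation or sequence of build Zv9 was used here, so regions are given by position, and tissue identity was not checked against marker genes.

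H3K27ac is laid down on nucleosomes beside active promoters and enhancers by the acetyltransferases p300 and CBP, and it separates active enhancers from those that are merely primed. Most acetylated sites are short, and neighbouring sites are commonly joined across the gaps between them before the joined stretches are ranked by total signal. The top of that ranking is called super-enhancers and the rest typical enhancers. A broad unjoined domain was listed as a single locus, whereas a joined region is put together from several. Whether single loci hold short unmarked stretches of their own cannot be read from the lists.

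Most broad unjoined domains were little longer than the minimum, and none reached 60 kb. The median length was 13.4 kb in the 1-year heart, 13.1 kb in the intestine, 13.4 kb in the brain, 12.4 kb in the 10-month heart and 12.1 kb in the testis. Lower and upper quartiles ran from 11.4 to 17.6 kb in the 1-year heart, from 11.4 to 16.2 kb in the intestine, and from 10.9 to 13.2 kb in the testis. Domains of 20 kb or more numbered 27 in the 1-year heart, 27 in the 1-year intestine, 26 in the brain, 2 in the 10-month heart and 1 in the testis. The testis and the 10-month heart thus held few members of any size and almost none of the longest. Lengths move in steps of 200 bp. Just inside the minimum, at 10199 bp, the 1-year heart had 7 regions with a median signal of 0.674 per bp, and just outside it, at 9999 bp, it had 5 unjoined regions with 0.635 per bp. In the intestine the 7 regions at 10199 bp had 0.817 per bp and the 5 unjoined regions at 9999 bp had 0.760 per bp. The values on either side of the minimum were close. The positions that mark it in the 1-year heart are chr11:26336601-26346799 (0.705 per bp) and chr12:21732001-21742199 (0.444 per bp) inside, and chr1:47930001-47939999 (0.635 per bp) and chr13:37191601-37201599 (0.676 per bp) outside. Those of the intestine are chr14:48566001-48576199 (2.68 per bp) and chr20:26489401-26499599 (0.742 per bp) inside, and chr14:22341401-22351399 (0.482 per bp) and chr15:20794401-20804399 (1.60 per bp) outside.

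**Figure D1:**
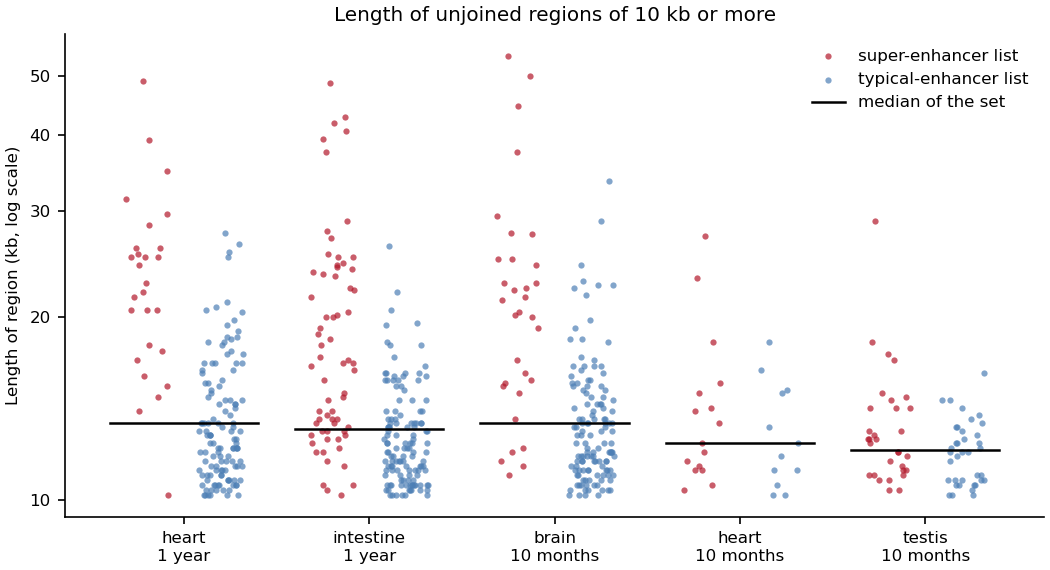
Length of each unjoined region of 10 kb or more (vertical axis, kb, log scale) in the 5 tissue and age sets, with super-enhancers in red, typical enhancers in blue and the median of each set as a bar. The medians lie between 12.1 and 13.4 kb, and the longest regions, up to 54.0 kb, are mostly on the super-enhancer lists.

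The longest domains lay on super-enhancer lists. The longest of the 1-year heart was chr20:32304001-32352999, with 49.0 kb and 0.941 units of signal per bp. The same place was a broad unjoined domain of 37.4 kb in the intestine and of 27.2 kb in the 10-month heart, and here regions are said to meet when the overlap takes up at least 50% of the shorter one. By that rule it met none in the brain or the testis, although regions covered 39.6% of it in the brain and 72.2% in the testis. Then came chr18:15752401-15791599 with 39.2 kb and chr10:22922201-22956999 with 34.8 kb. Both were broad unjoined domains in the intestine and the 10-month heart as well. The longest of the intestine were chr19:24985801-25034399 with 48.6 kb, chr3:24007401-24050199 with 42.8 kb and chr8:20952601-20994399 with 41.8 kb. None of these met a broad unjoined domain in another list. The chromosome 19 and chromosome 8 domains lay over joined super-enhancers in both hearts, while the chromosome 3 domain had 61.7% of its length covered by 5 regions in the 1-year heart, the one with the longest overlap an unjoined region of 8.4 kb, and 0% in the brain and the testis.

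The 3 longest brain domains lay within 2 Mb of one another on chromosome 1. They were chr1:46036601-46090599 with 54.0 kb, chr1:45452201-45502199 with 49.999 kb and chr1:47214201-47258799 with 44.6 kb. The first lay over joined super-enhancers in every other list. The second stood 31201 bp from its nearest neighbour, and regions covered 2.40% of it in the 1-year heart, 29.6% in the intestine, 0.798% in the 10-month heart and 29.6% in the testis. In the 10-month heart the longest were chr20:32325201-32352399 with 27.2 kb, chr10:22934001-22957199 with 23.2 kb and chr21:11352001-11370199 with 18.2 kb, and each overlapped a longer broad unjoined domain in the 1-year heart, of 49.0, 34.8 and 26.0 kb. In the testis they were chr25:36191401-36220199 with 28.8 kb, chr7:44061201-44079399 with 18.2 kb and chr17:23789001-23806399 with 17.4 kb. The chromosome 7 domain met no region in the heart or the intestine at 1 year, and unjoined regions of 4.0 kb in the brain and 5.2 kb in the 10-month heart.

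Broad unjoined domains carried the super-enhancer class more often than joined regions of their length. Super-enhancers were 27 of 151 in the 1-year heart (17.9%), against 0.740% of joined regions within 10% of the same length and 5.98% of all regions of that set. In the intestine they were 66 of 196 (33.7%), against 3.25% of joined regions of like length and 7.61% of all regions. In the brain they were 32 of 162 (19.8%), against 1.32% and 5.02%. In the 10-month heart they were 16 of 28 (57.1%), against 2.16% and 5.43%, and in the testis 31 of 68 (45.6%), against 17.0% and 5.8%. In the 10-month lists many regions hold a signal that does not match their own length. They made up 58.5% of regions in the brain, 71.3% in the 10-month heart and 70.8% in the testis, against 6, 0 and 3 domains. Domains and comparison regions thus differ in this, and its part in the class shares was not tested. The class commonly rests on signal over the whole region and so on length, which the choice of members used. The share over all regions includes many short ones. In all, 172 of the 605 domains were super-enhancers and 433 were typical enhancers. Counting only super-enhancers with a signal above the median of their list, the share fell to 0.662% in the 1-year heart and 7.14% in the intestine. It fell to 1.23% in the brain, 7.14% in the 10-month heart and 10.3% in the testis. A cut at the median keeps about as many super-enhancers of a list as it removes, so the shares over all regions fall too. The domains of the 1-year heart and the brain then lay below the reduced share over all regions. Those of the intestine, the 10-month heart and the testis lay above it. The excess over all regions thus did not hold in every set for the stronger super-enhancers. The share of joined regions of like length is not given for that count.

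The super-enhancer share was higher in the longest domains of the 1-year heart, the intestine and the brain. The 1-year heart had it in 1.92% of 52 domains of 10 to 12 kb, 4.76% of 42 domains of 12 to 15 kb, 16.7% of 30 domains of 15 to 20 kb and 70.4% of 27 longer domains. The intestine had 11.3%, 33.3%, 37.1% and 88.9% in the same bins, and the brain 6.25%, 7.14%, 23.3% and 69.2%. Super-enhancers are commonly ranked by total signal, which grows with length, but the rule that divided these lists is not known here. The share rose with length in joined regions too. Among joined regions of 10 to 12 kb it was 0% in the 1-year heart, 0.586% in the intestine and 0% in the brain. Among those of 20 kb or more it was 26.98%, 34.29% and 25.77%. The rise with length is therefore not particular to the domains. The 10-month heart showed no steady order, with 53.8% of 13, 62.5% of 8, 40% of 5 and 100% of 2 domains. The testis had 41.2% of its 34 domains of 10 to 12 kb on the super-enhancer list, 44.8% of 29, 75% of 4 and 100% of 1. Total signal did not by itself divide the 2 lists. Among 1-year heart regions, 14 broad domains on the typical-enhancer list had a total above that of the weakest super-enhancer listed for the organ, as did 21 in the 1-year intestine, 44 in the brain, 8 in the 10-month heart and 37 in the testis, where these were all the typical members. In the 10-month lists that weakest value may be shared by regions of the same name.

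The domains came in 2 kinds that differed in their surroundings. Of the 605, 316 have a plain number for a name and 289 have a name that counts 1 locus. All 102 plain-number domains of the 1-year heart had a neighbouring region close by, at a median gap of 1001 bp, and all 49 domains whose names count 1 locus stood at least 12801 bp from any region, with a median of 24601 bp. The intestine had 135 and 61 of these kinds, with median gaps of 1001 and 21601 bp. The brain had 51 and 111, with 1201 and 22601 bp, the 10-month heart 16 and 12, with 1301 and 18701 bp, and the testis 12 and 56, with 1801 and 26401 bp. The gaps of the 2 kinds did not overlap in any set. The widest gap beside any plain-number region, of any length, was 12401 bp, and the narrowest beside any region whose name counts its loci was 12601 bp. Plain-number domains are thus broad regions that lie near others without having been joined to them, and the others stand alone. Why neighbours at that distance were left unjoined is not given in the sources used here.

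**Figure D2:**
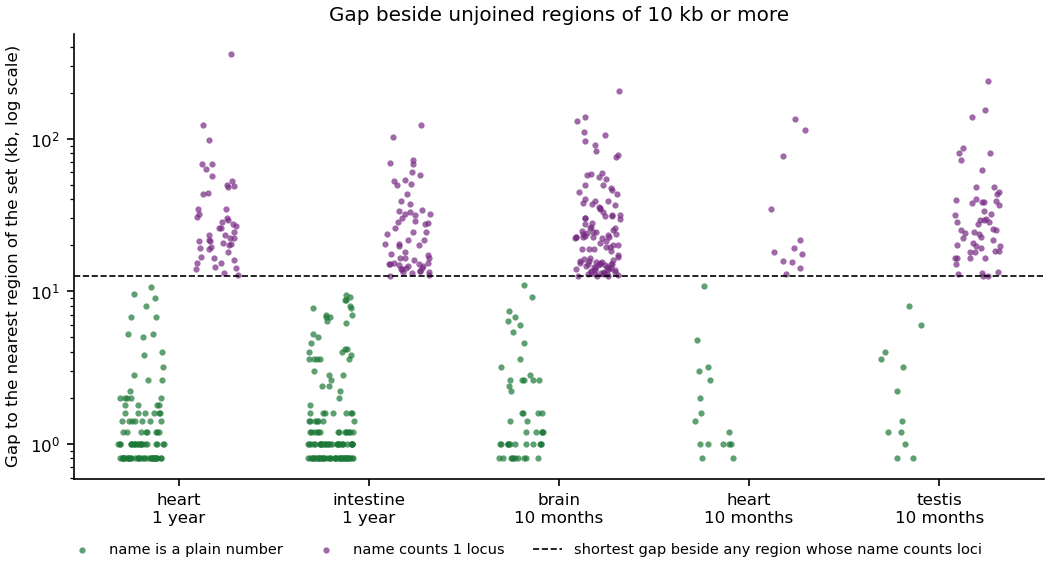
Distance from each unjoined region of 10 kb or more to the nearest region of its set (vertical axis, kb, log scale), for plain-number names (green) and names that count 1 locus (purple). The dashed line at 12.6 kb is the shortest gap beside any region whose name counts its loci, and green points lie below it while purple points lie on it or above.

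Plain-number domains were parts of crowded stretches. In the 1-year heart they fell into 58 runs of regions at such short gaps. The medians given next are over domains, so a run counts once for each plain-number domain in it. The run of a 1-year heart domain had a median of 11 regions, a median span of 101 kb and a median of 66.1% covered by regions. In the intestine there were 74 runs, with medians over domains of 13 regions and 111 kb. The brain had 21 runs, with a median span over domains of 135 kb. The 10-month heart had 10 runs, with 96.8 kb, and the testis 10, with 53.2 kb and a median of 4 regions. Several broad domains often shared a run, in 25 runs of the 1-year heart and 37 of the intestine, with at most 7 in a run in each. Domains in 1 run are neighbours on the same stretch and are not independent of one another. The super-enhancer share was 24.5% of plain-number domains and 4.08% of isolated ones in the 1-year heart, 37.8% and 24.6% in the intestine, 31.4% and 14.4% in the brain, 56.3% and 58.3% in the 10-month heart, and 75% and 39.3% in the testis. Of the 83 domains of 20 kb or more, 65 had plain-number names.

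The domains lay on all 25 chromosomes in the 1-year heart and intestine and in the brain, on 15 in the 10-month heart and on 23 in the testis, where chromosomes 1 and 3 had none. They were unevenly spread. Of the chromosomes of the 1-year heart, chromosome 12 held 20 of 151 domains (13.2%), against 4.21% of all regions of that set, and chromosome 20 held 13 (8.61%), against 4.43%. In the intestine chromosome 15 held 20 of 196 (10.2%), against 4.08%, and chromosome 20 held 17 (8.67%), against 4.61%. In the brain chromosome 1 held 17 of 162 (10.5%), against 4.47%. In the 10-month heart chromosomes 5 and 20 held 5 of 28 each (17.9%), against 5.88% and 4.38%, and in the testis chromosome 19 held 7 of 68 (10.3%), against 4.63%. Some of these domains lay together in crowded stretches. All 5 on chromosome 20 of the 10-month heart lay within chr20:32203401-32375199. Within chr20:32154201-32375199 lay 7 of the 13 of the 1-year heart and 7 of the 17 of the intestine. Of the 20 on chromosome 12 in the 1-year heart, 8 lay within chr12:27993201-28595999. These shares thus count single stretches several times.

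**Figure D3:**
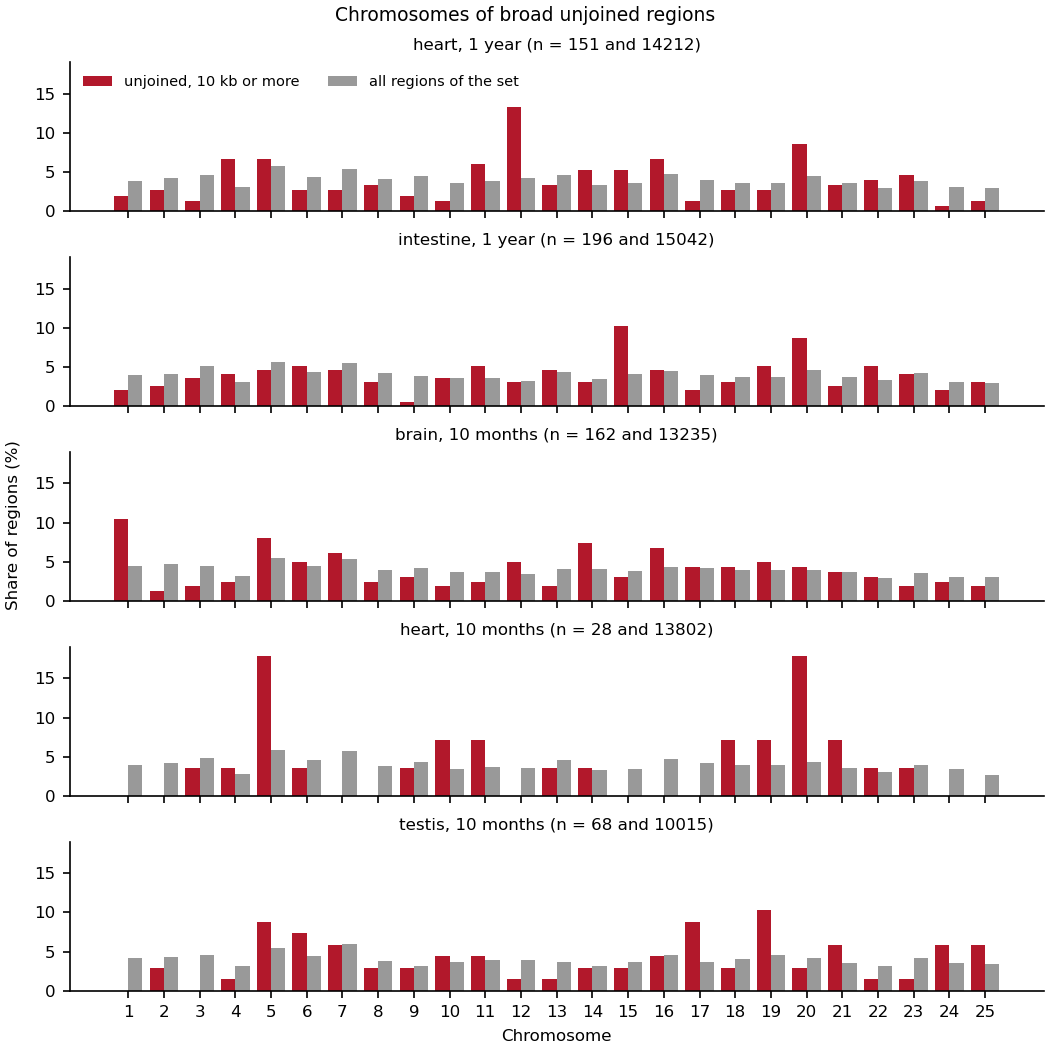
Share of regions on each of the 25 chromosomes (percent) for unjoined regions of 10 kb or more (red) and all regions of the set (grey), with the number of each in the panel titles. Chromosome 12 stands out in the 1-year heart with 13.2% of domains, chromosome 15 in the intestine with 10.2%, chromosome 1 in the brain with 10.5%, and chromosomes 5 and 20 in the 10-month heart with 17.9% each.

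The stretch of chromosome 20 near 32 Mb was broad and unjoined in several organs. Within chr20:32154201-32375199, which spans 221 kb, the intestine had 7 broad unjoined domains, its highest number within 1 Mb, the 1-year heart had 7 and the 10-month heart 5, all with plain-number names. The brain had 1 there and the testis 0. The regions of each list covered 89.3% of this stretch in the intestine, 84.2% in the 1-year heart, 62.6% in the 10-month heart, 76.2% in the brain and 55.0% in the testis. Brain and testis thus covered more than 50% of it, but mostly in joined form, with 2 joined super-enhancers each. The highest number of domains within 1 Mb in the 10-month heart lay in the same stretch.

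The densest stretches of the 1-year heart, the brain and the testis were broad and unjoined in a single list. Each stretch was picked for its number of domains in its own list, so lower numbers in other lists are favoured by that choice. In the 1-year heart it was chr12:27993201-28595999, with 8 domains of 11.0 to 24.4 kb among 48 regions covering 52.7% of it. No other list had a broad unjoined domain there, yet the intestine covered 56.0% of it with 12 regions, 7 of them joined, and the 10-month heart covered 47.6% with 12 regions, 9 of them joined. The share of this stretch covered by listed regions was thus alike in the hearts and the intestine, while the listing as separate or joined regions differed. Joined regions count the gaps between their loci as covered, so the acetylated shares themselves cannot be compared. In the brain it was chr14:23120401-23343399, with 6 domains covering, together with 18 shorter regions, 63.8% of it. Here the other tissues had little, with 21.2% covered in the 1-year heart, 0.717% in the intestine, 1.34% in the 10-month heart and 0 regions in the testis. In the testis it was chr17:23757801-24152199, with 3 domains in regions covering 17.6% of it, against 52.1% in the 1-year heart and 42.0% in the intestine, where regions were mostly joined.

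By the rule of 50% of the shorter region, most broad unjoined domains met a listed region of another tissue. A region met can be short, or a joined one whose gaps lie under the domain. With 50% of both regions required, the shares given next fell to 55.0% in the 1-year heart, 53.6% in the intestine and 38.9% in the brain. They fell to 78.6% in the 10-month heart and 50% in the testis. In the 1-year heart 144 of 151 domains met a region of another tissue, which is 95.4% (95% Clopper-Pearson interval 90.7 to 98.1%), against 86.1% of joined regions of like length and 79.7% of all regions. In the intestine they were 176 of 196, or 89.8% (84.7 to 93.7%), against 86.3% and 77.3%. In the brain they were 129 of 162, or 79.6% (72.6 to 85.5%), against 72.9% and 67.4%. In the 10-month heart all 28 met one (87.7 to 100%), against 88.3% and 78.8%, and in the testis 53 of 68, or 77.9% (66.2 to 87.1%), against 86.6% and 74.1%. These intervals cover counting error only and treat regions as separate. A long region can meet others more readily than a short one, so joined regions of like length are the closer match. The interval held the share of those joined regions in the intestine, the brain, the 10-month heart and the testis. Domains in 1 run are not independent, so the intervals do not decide in any set whether the shares differ. Regions of all 3 other tissues were met by 45 domains of the 1-year heart, 57 of the intestine, 56 of the brain, 16 of the 10-month heart and 17 of the testis. The share over all regions is not given for these last counts, so they are not set apart from other regions.

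Fewer met a broad unjoined domain of another tissue, yet more often than other regions did. They numbered 49 of 151 in the 1-year heart (32.5%), against 1.71% of joined regions of like length and 2.03% of all regions. In the intestine they were 46 of 196 (23.5%), against 1.43% and 1.85%, and in the brain 25 of 162 (15.4%), against 1.02% and 1.25%. In the 10-month heart they were 15 of 28 (53.6%), against 2.03% and 1.97%, and in the testis 7 of 68 (10.3%), against 2.79% and 2.06%. With plain-number regions left out, the shares of domains fell to 16.3% in the 1-year heart, 13.1% in the intestine and 5.41% in the brain. They fell to 25% in the 10-month heart and 7.14% in the testis. Shares of joined or all regions are not given for that setting, so whether the excess held there is not shown. Domains in 1 run are not independent and can meet such domains together. For the others the counterpart was joined or shorter, or there was none. Of the 151 domains of the 1-year heart, 38 met a broad unjoined domain of the intestine list and 28 a shorter unjoined region. Another 28 met a joined super-enhancer there, 42 a joined typical enhancer and 15 no region. The share that met any region there was 90.1%, against 73.8% of joined regions of like length and 67.1% of all regions. In the brain list 73 of them met none, and the share that did, 51.7%, was near the 54.1% of joined regions and 49.1% of all regions. In the testis list 75 met none and 50.3% met a region, against 38.3% and 35.7%. Of the 196 intestine domains, 37 met a broad unjoined domain in the 1-year heart and 26 a shorter unjoined region. Another 45 met a joined super-enhancer, 43 a joined typical enhancer and 45 no region. The share of intestine domains that met a 1-year heart region, 77.0%, was near the 75.4% of joined regions of like length, beside 66.6% of all regions. In the brain list 46.4% met a region, against 49.9% and 43.7%, and in the testis list 44.4%, against 37.3% and 33.2%. Of the 162 brain domains, between 3, in the testis, and 14, in the 1-year heart, were broad and unjoined in another list. Shares over all or joined regions are not given for the kinds of counterpart within a single list, so those counts are not set apart from other regions.

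**Figure D4:**
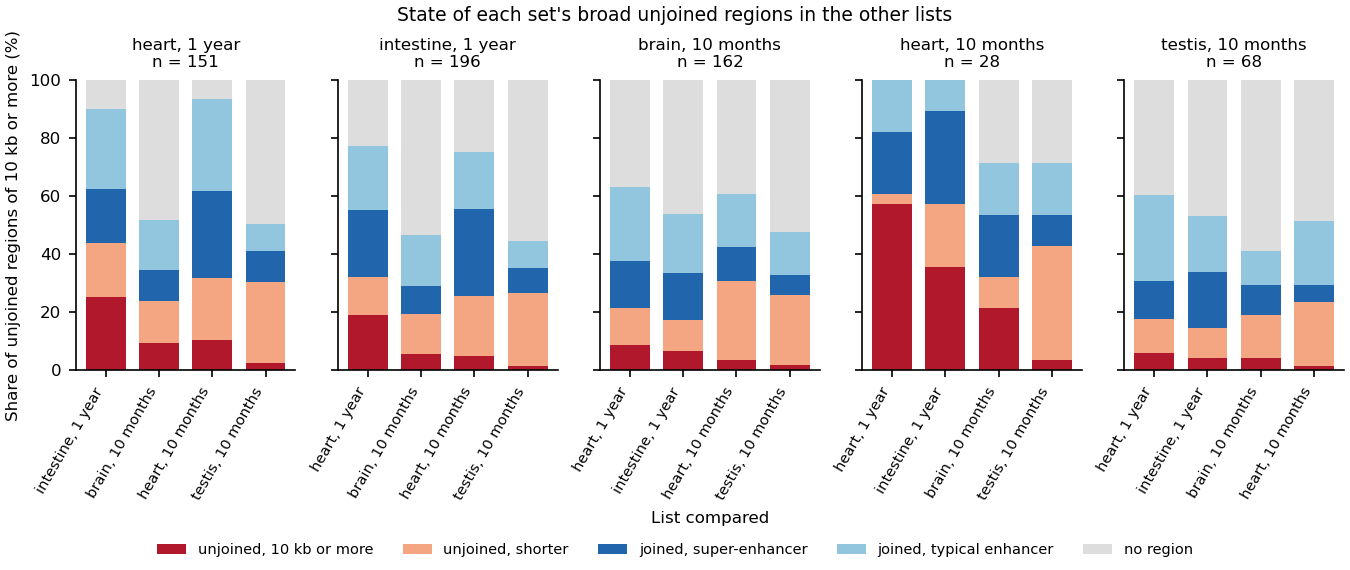
For each set's unjoined regions of 10 kb or more, the share (percent) that met a region of the same kind, a shorter unjoined region, a joined super-enhancer, a joined typical enhancer or no region in each other list, by an overlap of at least 50% of the shorter region. The 28 domains of the 10-month heart all meet a region in the 1-year heart and intestine, and the grey share is largest toward brain and testis.

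The 2 heart sets show how the form of a domain can differ within an organ. Of the 151 domains of the 1-year heart, 141 met a region in the 10-month heart (93.4%), against 82.2% of joined regions of like length and 68.9% of all regions, and 16 of them met a broad unjoined one. Another 32 met a shorter unjoined region, 45 a joined super-enhancer and 48 a joined typical enhancer, and those 93 joined counterparts had a median of 4 loci over 34.0 kb. Regions of the 10-month heart covered a median of 84.1% of each domain of the 1-year heart. In the other direction all 28 domains of the 10-month heart met a region of the 1-year heart, against 91.3% of joined regions of like length and 80.8% of all regions. For 16 of them it was a broad unjoined one, and regions of the 1-year heart covered a median of 100% of their length. Shares over all or joined regions are not given for the separate kinds of counterpart or for the covered length. These counts are therefore not set apart from other regions. The 10-month heart came from 1 immunoprecipitated library and shorter fragments, and the part of age, library number and preparation in these counts cannot be told apart.

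Domains of any sets that share at least 1 bp were merged, which gave 516 separate places. A broad unjoined domain was found in 1 tissue at 455 of them (88.2%), in 2 tissues at 54, in 3 at 6 and in all 4 at 1. No such count is given for other kinds of region, so this share is not set apart from theirs. Places with domains in the intestine alone numbered 150, in the brain alone 136, in the heart alone 108 and in the testis alone 61. The most frequent pair was heart and intestine, at 32 places, followed by brain and heart at 12 and brain and intestine at 5. Heart and intestine are also the organs of the 1-year sets, which share age and fragment size.

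The place with a domain in all 4 tissues, and in all 5 sets, was chr21:26111401-26123199, of 11.8 kb, named here after its values were seen. Its boundaries barely moved, with domains of 11.4 kb in the 1-year heart, the intestine, the brain and the 10-month heart, and of 10.4 kb in the testis. It was on the super-enhancer list in 4 sets and on the typical-enhancer list in the 1-year heart, where its signal was 1.03 per bp. The 5 longest of the 7 places with domains in 3 or more tissues were more uneven. At chr1:47210801-47258799 the brain domain took up 44.6 kb, the 1-year heart 20.6 kb and the intestine 13.6 kb. At chr5:31602601-31650199 the 1-year heart had 2 domains, the longer of 20.6 kb, the brain 2, the longer of 27.6 kb, the intestine 1 of 12.4 kb and the 10-month heart 1 of 12.0 kb. At chr20:32149201-32179799, at the edge of the crowded stretch described above, the 1-year heart had 13.4 kb, the intestine up to 14.0 kb and the brain 11.2 kb, all typical enhancers. At chr10:46369801-46387199 1-year heart, brain and testis had domains of 16.8, 15.0 and 11.2 kb, and at chr16:35407201-35424399 1-year heart, intestine and brain had 10.2, 11.6 and 13.8 kb.

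At the other end, 75 domains met no region of another tissue, 33 in the brain, 20 in the 1-year intestine, 15 in the testis, 7 in the 1-year heart and 0 in the 10-month heart. Not a single base pair was shared with any other list by 29 of these brain domains, 14 of the intestine, 11 of the testis and 2 of the 1-year heart. The share of all regions that shared none is not given here. The 3 longest, chosen after their values were seen, were chr3:23978601-24006399 of the intestine with 27.8 kb and a signal of 1.52 per bp, chr1:25728001-25750599 of the brain with 22.6 kb and chr20:27103601-27123799 of the intestine with 20.2 kb. The intestine domains were super-enhancers and the brain domain a typical enhancer. The chromosome 3 domain lies 1001 bp before the 42.8 kb intestine domain named above, so the intestine had 2 of its long domains side by side, and at the second the 10-month heart had a joined typical enhancer of 9.4 kb.

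The deposited value of a region is a total signal, and divided by length it gives a density, in the deposited units per bp, which is compared here within a set. In the 1-year sets broad unjoined domains were denser than joined regions of their length, as were unjoined regions of 5 to 10 kb. In the 1-year heart the domains had a median of 0.677 per bp (quartiles 0.590 and 0.800), against 0.383 per bp for the joined regions within 10% of each domain's length. The median ratio was 1.77, with quartiles of 1.53 and 2.04, and all 151 domains lay above the median of their joined regions, by 1.1 to 8.12 times (Clopper-Pearson interval of the share 97.6 to 100%). In the intestine the domains had a median of 0.958 per bp (0.744 and 1.25), against 0.433 per bp, with a median ratio of 2.23 (1.72 and 2.81), and all 196 lay above, by 1.07 to 6.65 times (98.1 to 100%). Each domain was set against 339 to 703 joined regions. The intervals cover counting error only, and domains in 1 run are not independent of one another.

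A joined region includes the gaps between its loci, and a broad unjoined domain leaves out the gaps beside it. When the runs that hold plain-number domains were taken whole, with their gaps counted at a signal of 0, the difference was smaller in the intestine and absent in the heart. For the 1-year heart, 24 of 58 such runs (41.4%) lay above joined regions of like length, with medians of 0.415 and 0.429 per bp and a median ratio of 0.949. In the intestine 45 of 73 runs (61.6%) lay above, with medians of 0.567 and 0.497 per bp and a median ratio of 1.14, and 1 run had too few joined regions of its length. This alternative was chosen after seeing the data, and a gap may hold some signal, so these are lower limits for the runs. Whole runs also take in the shorter neighbouring regions and have a median length of 89.0 kb in the heart and 90.4 kb in the intestine, so the part of the gaps alone was not tested. Isolated domains have no such neighbours, and they too were denser than joined regions of their length, with a median ratio of 1.60 over 49 domains in the heart and of 2.05 over 61 in the intestine, beside 1.83 and 2.29 for plain-number domains. How much of the isolated domains' difference comes from gaps inside the joined regions was not tested.

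**Figure D5:**
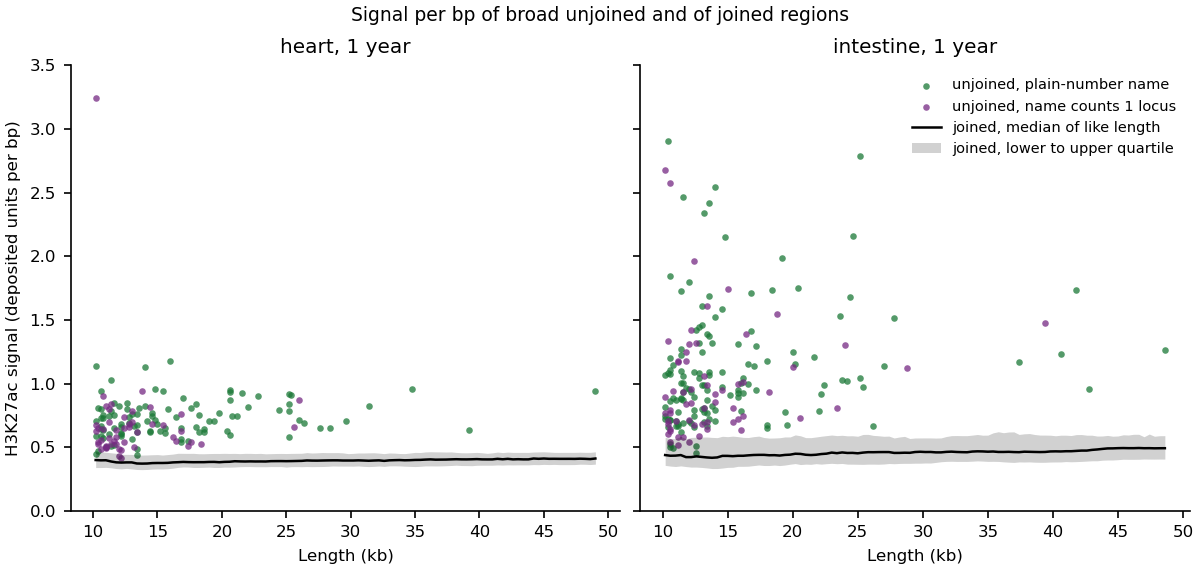
Signal per bp (vertical axis, deposited units) against length (kb) for unjoined regions of 10 kb or more in the 1-year heart and intestine, by form of name, with the median (line) and quartiles (grey band) of joined regions within 10% of each length. The points of the heart lie mostly between 0.4 and 1.2 per bp above a line near 0.4, and those of the intestine spread more widely, up to 2.91 per bp.

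Unjoined domains had higher medians of density than joined regions of any number of loci. Between 10 and 20 kb in the 1-year heart, the median was 0.686 per bp in plain-number domains and 0.618 in isolated ones, against 0.365, 0.383 and 0.410 per bp in regions of 2, 3 and 4 loci. In the intestine it was 0.957 and 0.849 per bp, against 0.414, 0.437 and 0.462. Joined regions of 5 loci had 0.390 per bp in the heart (37 regions) and 0.511 in the intestine (41), and those of 6 or more 0.445 and 0.527 (4 in each set). Set among all regions of their own list, short ones included, the domains had a median percentile of signal per bp of 82.4 in the 1-year heart and 85.6 in the intestine, and 145 of 151 and 188 of 196 lay above the median of all regions, which was 0.479 and 0.569 per bp. Longer domains tended to be somewhat denser, with a Spearman rho of 0.26 in the 1-year heart and 0.30 in the intestine. These rhos are across regions of 1 list, which share libraries and depth, and are given as a description.

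The 3 densest domains of each 1-year set ran from 10.2 to 25.2 kb. Of the 1-year heart, chr5:3724001-3734199, of 10.2 kb, had 3.24 per bp, and the next were chr12:28407401-28423399 with 1.18 and chr16:35413801-35423999 with 1.14. The chromosome 5 domain stood far above the rest of its set and 122201 bp from the nearest region. It was a broad unjoined super-enhancer in the intestine too, with 10.6 kb, and in the 10-month heart, with 11.6 kb and 1.93 per bp, the highest value of that set. In the testis it met an unjoined typical region of 4.4 kb, and in the brain regions covered 9.80% of it. The chromosome 12 domain lies in the crowded stretch near 28 Mb and fell within joined super-enhancers of 14 loci in the intestine and 19 loci in the 10-month heart. In the intestine the densest were chr22:10506001-10516399 with 2.91 per bp, chr19:351401-376599 with 2.79 and chr14:48566001-48576199 with 2.68, all super-enhancers. The chromosome 19 domain was long as well, with 25.2 kb. It met a broad unjoined super-enhancer of 10.6 kb in the 10-month heart. In the 1-year heart a joined super-enhancer of 2 loci and 21.8 kb covered 86.5% of it.

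For the heart and the intestine at 1 year, 37 overlapping pairs of broad unjoined domains were compared. These are not all such pairs, since 38 heart domains met a broad unjoined intestine domain and a domain can meet several. Across the pairs Spearman's rho was 0.589 for length and 0.550 for signal per bp, a description over pairs that include neighbours on the same stretch. Both domains of a pair were chosen by length and by overlap, so the rho for length rests on values the choice used. No such values are given for pairs of other regions, so no likeness particular to the domains is shown. The heart domain was the longer in 18 pairs, the intestine domain in 14, and 5 were equal. Both were super-enhancers in 11 pairs, both typical in 17, and the class differed in 9. The form of name was the same in 36 pairs, with 31 plain-number pairs and 5 isolated pairs.

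Regions with a common name in the 10-month lists hold 1 common signal at different lengths, so density was computed only for the 249 of 258 domains whose signal is a whole multiple of their length after multiplication by 10000. Leaving out 6 in the brain and 3 in the testis, the median density was 0.611 per bp in 156 brain domains, 0.698 in 28 domains of the 10-month heart and 0.437 in 65 testis domains. The median ratio to joined regions of like length was 1.46 in the brain, 1.68 in the 10-month heart and 1.18 in the testis, and 152 of 156, 28 of 28 and 55 of 65 domains lay above. Testis domains were thus the closest to joined regions of their length. Their highest value was 1.19 per bp at chr4:7443601-7456399 and that of the brain 1.34 per bp at chr7:34678401-34689999, both named after their values were seen. Joined 10-month regions whose signal is not their own were left out too, and the part of that selection in the ratios was not tested.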

How the data were processed

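H3K27ac regions of 5 tissue and age sets were analysed as deposited, in 10 lists in build Zv9. Per the file headers each region has a position, a name and a density value. The deposited signal is a total over the region, a mean per bp with 4 decimals times the length, and its scaling is not given in the sources used here. Tools named in the submitters' processing notes, with no roles, are SICER 1.1, bedtools 2.24.0, SAMtools 0.1.8, Bowtie2 2.1.0 and CASAVA. How replicates and input were combined is not given in the sources used here, and there is no value per replicate and no depth.

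Members are regions of at least 10000 bp whose name is a plain number or counts 1 locus. Members, comparisons and lists were chosen with earlier results of these data known. Regions are named by rule: the 3 longest members of each set, the 3 of highest density in each 1-year set, the 5 longest merged places with members in 3 or more tissues, and 2 regions on either side of the length minimum in each 1-year set. The densest stretches are outside this rule and were picked by their number of members within 1 Mb in 1 set. An overlap takes at least 50% of the shorter region, and joined regions of like length lie within 10%, with at least 5 per member. No test was made, since length and class chose or follow the choice of members and regions are not replicates. Alternatives were other minimums, overlaps, length windows, joined pools and the omission of chromosome 4. Positions are 1-based. Calculations used Python 3.11.15, numpy 2.4.6, pandas 2.3.3, scipy 1.17.1 and matplotlib 3.10.9, and the steps were tested on simulated data.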

Additional observations from a re-analysis of the deposited data

How the results depend on the processing

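No paired analysis was possible because every result is a description of 1 deposited list per set, with no value per replicate; leaving out replicates was impossible for the same reason, and unknown depth limits what a missing region means. Of 117 values under alternative settings, 78 were labelled the same as those of the report, 39 moved and 0 reversed. The label is loose, with a limit of 1.5 times for counts. It took in a fall from 162 to 111 brain domains without plain-number regions. It also took in a fall from 53.6% to 42.9% of 10-month heart domains meeting a broad unjoined domain, with 50% of both regions required. A value labelled moved can have changed its order against the comparison. In the 1-year heart 41.4% of whole runs lay above joined regions of like length, against 100% of domains. Without plain-number domains the super-enhancer share there was 4.08%, below the 5.98% of all regions. With a minimum of 15000 bp there were 57 domains in the 1-year heart, 62 in the 1-year intestine, 56 in the brain, 7 in the 10-month heart and 5 in the testis. Their super-enhancer share was 42.1%, 59.7% and 44.6% in the 1-year heart, the intestine and the brain, 57.1% in the 10-month heart, as with the lower minimum, and 80.0% in the testis. The share that met a region of another tissue was 98.2%, 95.2%, 89.3%, 100% and 100% in these sets. The share that met a broad unjoined domain was lower in the 1-year heart, the intestine, the brain and the testis, at 22.8%, 16.1%, 7.14% and 0%, and higher in the 10-month heart, at 71.4% of 7 domains. With 50% of both regions required, the share that met a region was 55.0% in the 1-year heart, 53.6% in the 1-year intestine, 38.9% in the brain, 78.6% in the 10-month heart and 50% in the testis. Super-enhancers with a signal above the median of their list made up 0.662% of domains in the 1-year heart, 7.14% in the 1-year intestine, 1.23% in the brain, 7.14% in the 10-month heart and 10.3% in the testis. Such a cut lowers the share over all regions as well, since it keeps about as many super-enhancers of a list as it removes. The domains then lay below that reduced share in the 1-year heart and the brain, and above it in the other sets. Leaving out plain-number regions, chosen after seeing the data, left 49 domains in the 1-year heart, 61 in the intestine and 12 in the 10-month heart, with a super-enhancer share of 4.08% in the 1-year heart and 24.6% in the intestine. The share that met a broad unjoined domain of another tissue was then 16.3%, 13.1%, 5.41% and 25% in the 1-year heart, the intestine, the brain and the 10-month heart. Against joined regions of the same class, 93.8% of 192 intestine domains were denser, and for whole runs with gaps at 0, also added after seeing the data, the shares were 41.4% in the 1-year heart and 61.6% in the intestine. Fewer regions or a stricter overlap lie behind these counts by construction; the cause of the other changes was not tested.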
